A study of Mus musculus with 10 samples.

Results

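The IGKV5 family is a group of 5 V genes of the mouse kappa light chain (Igk) locus, IGKV5-37, IGKV5-39, IGKV5-43, IGKV5-45 and IGKV5-48. Its members were chosen by name, as the clonotypes whose V label was exactly 1 of these genes. A clonotype here is 1 line of a repertoire table, a rearrangement with its V gene, its J gene, the amino acids of its CDR3 and the number of its reads. By this rule the family held 1424 of 44103 clonotypes in 6 Igk libraries, and 3 of its 5 genes had any. There were 73 clonotypes of IGKV5-37, 365 of IGKV5-39 and 986 of IGKV5-48. IGKV5-43 and IGKV5-45 had 0 clonotypes of their own, because every rearrangement that could be either carried the joint label "IGKV5-43, or IGKV5-45". The 520 clonotypes with this joint label lie outside the rule and are given beside the members. 1 further clonotype named an IGKV5 gene together with another V gene and was left out.

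The libraries were made by PCR from genomic DNA of sorted peritoneal cavity B cells of C57BL/6 mice aged 6 to 8 weeks, with 2 libraries in each of 3 groups. The groups were wild-type (WT) B-1a cells, B-1a cells of Igll1 knockout (Igll1-/-) mice and WT B-2 cells. Igll1-/- mice lack λ5, a part of the surrogate light chain, in every cell of the body. All groups shared the strain, tissue and age range, and surface markers were not measured in these tables. The libraries held 5701 to 8652 clonotypes and 214000 to 288396 reads, and 57.7% to 59.2% of the clonotypes rested on a single read. In a library of this size 3 clonotypes make up 0.0347% to 0.0526%, which is the limit that a count of 0 allows. Labels with several V genes took 5.72% to 6.68% of clonotypes, which stayed in the library total. The labels do not say whether replicates came from separate mice, so p-values measure the spread between these libraries, which may be technical.

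A kappa light chain is assembled when the recombinase joins 1 of many V genes to 1 of a few J genes. The V gene codes for most of the variable domain and for the start of the CDR3, the loop that lies at the centre of the antigen-binding site, and the J gene codes for its end. During classical B-cell development the heavy chain first pairs with the surrogate light chain to form the pre-BCR, and Igk rearrangement follows. B-1a cells are a self-renewing subset of the body cavities, known for natural antibodies of restricted V gene use, whereas B-2 cells are the conventional follicular type. The comparison of Igll1-/- with WT B-1a cells asks whether light chain V gene use differs when B-1a cells arise without a pre-BCR, and B-2 cells serve as the conventional reference.

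The CDR3 sets IGKV5-37 and IGKV5-39 apart from the other members. The 4 sequences below are the J5 rearrangement with most reads over the 6 libraries for each label, shown because the results below turn on them. They are amino acids in one-letter code as the tables give them.

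IGKV5-37 with IGKJ5: LQGYSTPLT

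IGKV5-39 with IGKJ5: QNGHSFPLT

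IGKV5-48 with IGKJ5: QQSNSWPLT

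IGKV5-43, or IGKV5-45 with IGKJ5: QQSNSWPLT

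All 4 have 9 residues and end alike. The joint label and IGKV5-48 share the same CDR3, so these letters do not tell the labels apart. Of the reads of all Igk clonotypes that began with QNGHSFP, 99.4% were listed under IGKV5-39, and of those that began with LQGYSTP, 99.6% under IGKV5-37. Reads that began with QQSNSWP were divided, with 51.6% under IGKV5-48 and 47.9% under the joint label.

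IGKV5-48 was the most used member, IGKV5-39 followed, and IGKV5-37 was rare in every library. Igll1-/- B-1a cells had a larger share of IGKV5-39 clonotypes than WT B-1a cells. IGKV5-39 took 0.442% and 0.488% of the clonotypes in the WT B-1a libraries, from 32 and 34 clonotypes. It took 0.947% and 1.53% in the Igll1-/- B-1a libraries, from 54 and 106 clonotypes, and 0.902% and 0.708% in the WT B-2 libraries, from 78 and 61. Both Igll1-/- libraries thus lay above all others, the WT B-2 libraries came next and the WT B-1a libraries were lowest. The mean of Igll1-/- B-1a cells was 1.24% ± 0.41 (SD, n = 2), that of WT B-2 cells 0.805% ± 0.137 (SD, n = 2) and that of WT B-1a cells 0.465% ± 0.033 (SD, n = 2). The 95% Wilson intervals, which cover counting error only, ran from 0.314% to 0.682% over the WT B-1a libraries, from 0.727% to 1.84% over the Igll1-/- libraries and from 0.552% to 1.12% over the WT B-2 libraries, which overlapped that of Igll1-/- replicate 1 (0.727% to 1.23%). Among all single Igkv genes of a library IGKV5-39 ranked 59 and 52 in WT B-1a, 27 and 19 in Igll1-/- B-1a, and 46 and 52 in WT B-2 cells. By reads the order of the groups was the same, with 0.190% and 0.224% in WT B-1a, 0.658% and 1.41% in Igll1-/- B-1a, and 0.417% and 0.417% in WT B-2 cells.

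For IGKV5-48 the shares were 1.55% and 1.91% in WT B-1a (112 and 133 clonotypes), 3.19% and 2.25% in Igll1-/- B-1a (182 and 156) and 2.28% and 2.39% in WT B-2 cells (197 and 206). Both WT B-1a libraries were the lowest, and the Igll1-/- libraries lay on either side of the WT B-2 libraries. The highest library, Igll1-/- replicate 1, had a 95% Wilson interval of 2.77% to 3.68%, which did not reach that of replicate 2, 1.92% to 2.62%. Group means were 1.73% ± 0.26 (SD, n = 2), 2.72% ± 0.67 (SD, n = 2) and 2.33% ± 0.08 (SD, n = 2). IGKV5-48 ranked between 7 and 17 among the V genes of each library.

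IGKV5-37 had 7 and 21 clonotypes in WT B-1a, 3 and 7 in Igll1-/- B-1a and 18 and 17 in WT B-2 cells, that is 0.0968% and 0.302%, 0.0526% and 0.101%, and 0.208% and 0.197%. Igll1-/- replicate 1 lay at the limit of 3 clonotypes, and the WT B-1a libraries differed 3-fold in count. WT B-1a and Igll1-/- B-1a cells overlapped, while both Igll1-/- libraries lay below both WT B-2 libraries. IGKV5-37 passed the filter of at least 10 clonotypes in at least 2 libraries only through WT B-1a replicate 2 and the WT B-2 libraries.

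**Figure D1:**
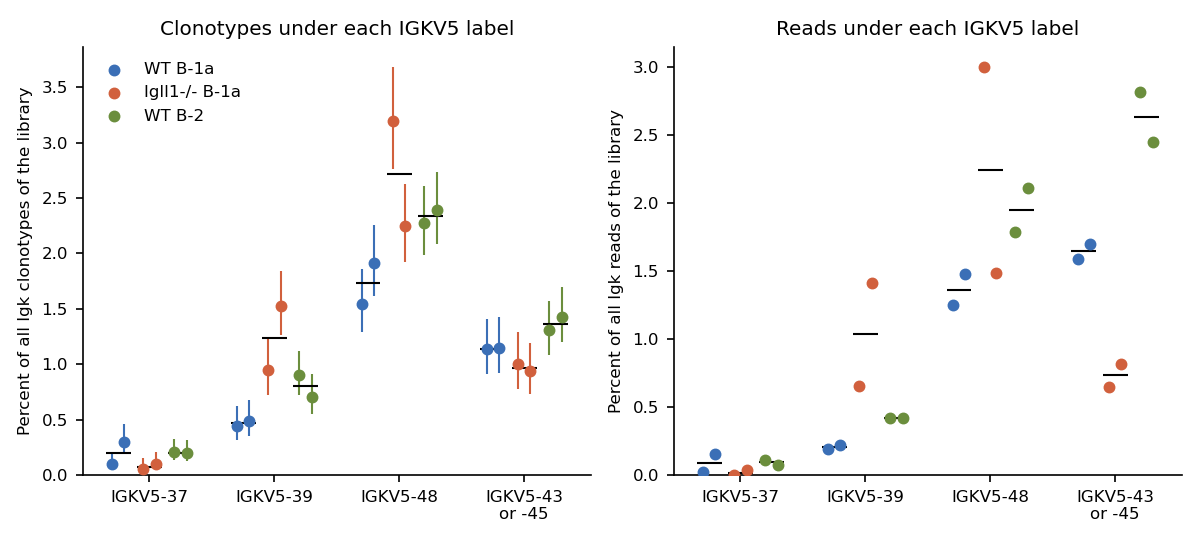
Percent of all Igk clonotypes (left) and reads (right) of each library under the IGKV5 labels, with 1 point per library, horizontal lines for group means (n = 2) and, for clonotypes, vertical lines for 95% Wilson intervals. IGKV5-39 is higher in both Igll1-/- B-1a libraries than in any other, and the reads of the joint label are lowest there.

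The joint label of IGKV5-43 and IGKV5-45 took 1.13% and 1.15% of clonotypes in WT B-1a, 0.9998% and 0.937% in Igll1-/- B-1a, and 1.31% and 1.43% in WT B-2 cells. Its groups did not overlap, in the order opposite to that of IGKV5-39 for both B-1a groups. With 2 libraries per group this is a description only. In the test by clonotypes given below the joint label passed in no comparison (edgeR adjusted p = 0.61, 0.22 and 0.65). By reads it took 1.59% and 1.70% in WT B-1a, 0.648% and 0.818% in Igll1-/- B-1a, and 2.82% and 2.45% in WT B-2 cells. The 3 single labels together made up 2.09% and 2.70% of clonotypes in WT B-1a, 4.19% and 3.88% in Igll1-/- B-1a, and 3.39% and 3.297% in WT B-2 cells. With the joint label added these sums became 3.22% and 3.85%, 5.19% and 4.81%, and 4.69% and 4.73%.

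The test of these shares was the quasi-likelihood test of edgeR, adjusted by the Benjamini-Hochberg procedure over 84 V genes, among them the 3 members. Between Igll1-/- and WT B-1a cells 15 V genes passed the threshold of 0.05, 17.9% of those tested (8.33% higher and 9.52% lower in Igll1-/- cells), and 1 of the 3 members did. IGKV5-39 rose by 1.41 on the log2 scale (standard error 0.41, edgeR adjusted p = 0.035), a 2.66-fold higher share. IGKV5-48 had a log2 fold change of 0.65 (standard error 0.24, unadjusted p = 0.0215, edgeR adjusted p = 0.086) and IGKV5-37 of −1.32 (standard error 0.69, edgeR adjusted p = 0.22). The median of the 3 members was 0.65, beside −0.17 over all V genes tested. With TMM scaling, which moved the median of all V genes by 0.26, 10 of 16 called V genes were higher in place of 7 of 15, and both IGKV5-39 (1.67, edgeR adjusted p = 0.014) and IGKV5-48 (0.91, edgeR adjusted p = 0.019) passed. The call on IGKV5-39 was lost when near-identical clonotypes were merged (0.80, edgeR adjusted p = 0.17), over clonotypes with at least 10 reads (0.22, edgeR adjusted p = 0.81) and with the leading CDR3 start described below (1.02, edgeR adjusted p = 0.10). It was also lost without WT B-1a replicate 1 (edgeR adjusted p = 0.18), WT B-1a replicate 2 (0.13), Igll1-/- replicate 2 (0.090), WT B-2 replicate 1 (0.082) or WT B-2 replicate 2 (0.084), with log2 fold changes from 1.02 to 1.48. Without Igll1-/- replicate 2, IGKV5-48 passed instead at 0.89 (edgeR adjusted p = 0.00021). IGKV5-37 also passed there, but it had entered the test through WT libraries alone and its remaining Igll1-/- library held 3 clonotypes, so no fold is drawn from it.

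In the comparison of Igll1-/- B-1a with WT B-2 cells, 19 V genes passed (22.6%, with 7.14% higher and 15.5% lower in Igll1-/- cells). By edgeR 0 of the 3 members did, and 0 had an unadjusted p under 0.05, as 27 of all 84 V genes did. DESeq2 and TMM scaling also called 0, with 2 at an unadjusted p under 0.05. The log2 fold changes were 0.62 for IGKV5-39 (edgeR adjusted p = 0.26), 0.22 for IGKV5-48 (0.52) and −1.35 for IGKV5-37 (0.16). Their median of 0.22 stood beside −0.49 over all V genes. Of all V genes called, 6 of 19 were higher, against 7 of 8 with TMM scaling and 8 of 8 with DESeq2. Without Igll1-/- replicate 2, IGKV5-48 passed at 0.45 (edgeR adjusted p = 0.0496), and IGKV5-37 passed with the same limit as above, whereas without Igll1-/- replicate 1 IGKV5-48 turned to −0.054.

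Between WT B-1a and WT B-2 cells 3 V genes passed (3.57%). No member did, with 0 of 3 by edgeR, 0 at an unadjusted p under 0.05 (18 of all 84 V genes) and 0 by DESeq2. The log2 fold changes were −0.79 for IGKV5-39 (edgeR adjusted p = 0.32), −0.43 for IGKV5-48 (0.35) and −0.03 for IGKV5-37 (0.99), which turned to 0.16 with TMM scaling. The 3 comparisons share libraries and are not independent of each other.

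**Figure D2:**
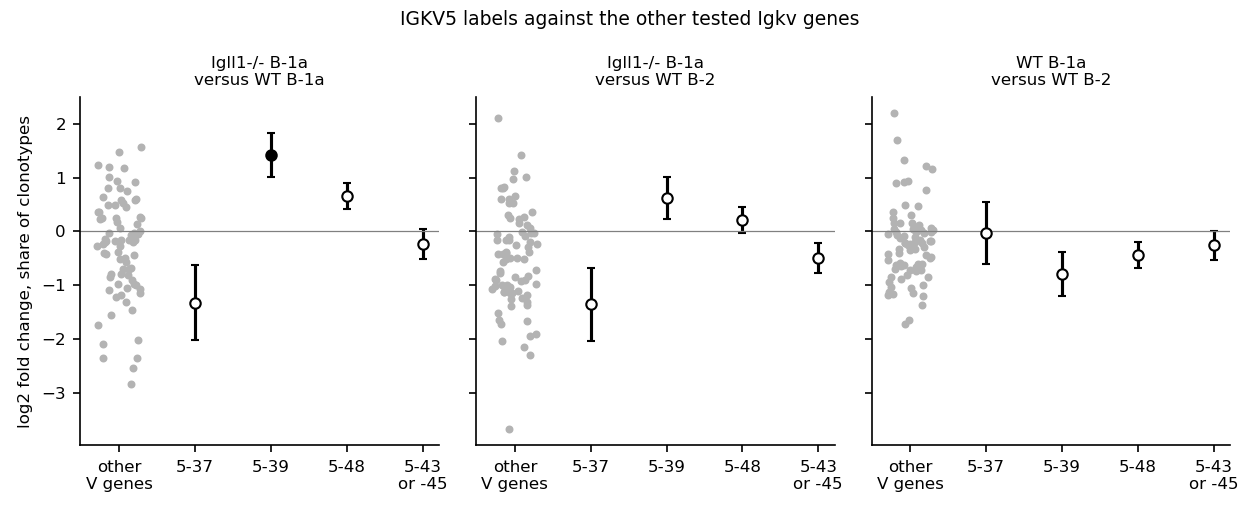
Log2 fold changes of the share of clonotypes in the 3 comparisons, for the IGKV5 labels (black, bars are standard errors) and each other tested V gene (grey, spread sideways at random). Only the filled point, IGKV5-39 in Igll1-/- against WT B-1a cells at 1.41, passed the edgeR threshold, and the joint label comes from a fit that keeps labels with several V genes.

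When labels with several V genes were kept as features, an alternative chosen after seeing the data, 90 labels were tested and the joint label could be compared. By clonotypes its log2 fold change was −0.24 between Igll1-/- and WT B-1a cells (edgeR adjusted p = 0.61), −0.50 between Igll1-/- B-1a and WT B-2 cells (0.22) and −0.26 between WT B-1a and WT B-2 cells (0.65). The first of these turned to 0.0030 with TMM scaling and the last to 0.039 with DESeq2. By reads the joint label fell by 1.85 on the log2 scale between Igll1-/- B-1a and WT B-2 cells (edgeR adjusted p = 0.013), in a fit where 18.3% of labels passed. It was −1.17 between Igll1-/- and WT B-1a cells (edgeR adjusted p = 0.058; 12.5% of labels passed) and −0.68 between WT B-1a and WT B-2 cells (edgeR adjusted p = 0.30; 2.88% of labels passed).

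The division of reads between IGKV5-48 and the joint label differed between the groups. This was noticed in the data and is given as a description. Of the reads under both labels, IGKV5-48 held 43.9% and 46.6% in WT B-1a, 82.2% and 64.6% in Igll1-/- B-1a, and 38.8% and 46.3% in WT B-2 cells. Both Igll1-/- libraries lay above the others, and WT B-1a and WT B-2 cells overlapped. QQSNSWPLT with IGKJ5, the CDR3 shared by both labels, supplied a large part of these reads. IGKV5-48 held 50.3% and 51.1% of its reads in WT B-1a, 82.1% and 65.1% in Igll1-/- B-1a, and 29.2% and 38.4% in WT B-2 cells, so that here the 3 groups did not overlap. Summed over both labels this rearrangement took 1.49% and 1.81% of all reads in WT B-1a, 2.81% and 1.45% in Igll1-/- B-1a, and 2.17% and 2.21% in WT B-2 cells. The Igll1-/- libraries were thus the highest and the lowest of the 6.

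**Figure D3:**
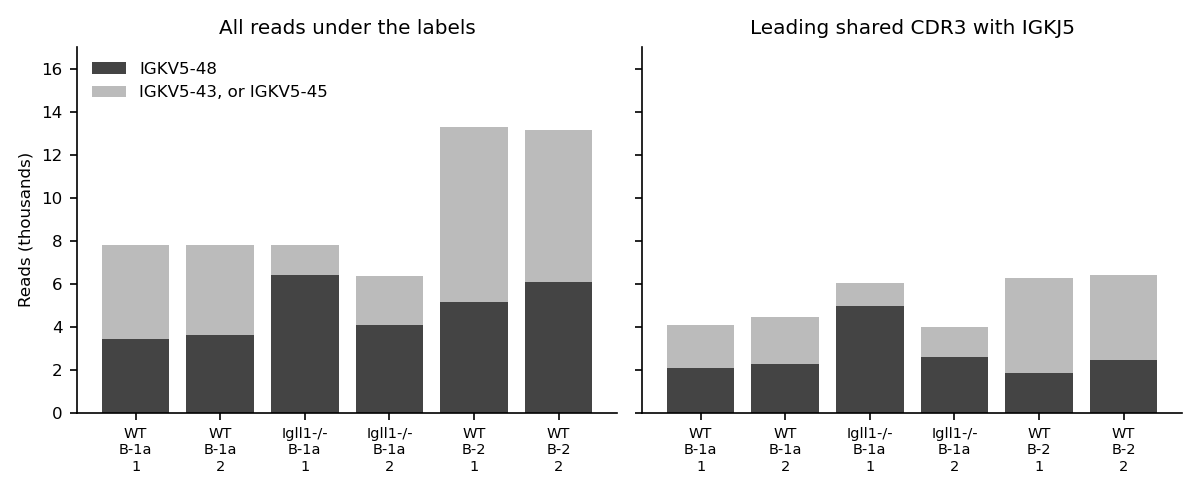
Stacked reads of each library under IGKV5-48 (dark) and under the joint label (light), for all clonotypes (left) and for the CDR3 that leads both labels (right). IGKV5-48 takes 82.2% and 64.6% of the stacked reads in the Igll1-/- B-1a libraries and between 38.8% and 46.6% in the others.

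J gene use is given as a description. IGKV5-48 was joined mostly to IGKJ5, in 75.0% and 69.7% of its clonotypes in WT B-1a, 73.1% and 65.2% in Igll1-/- B-1a and 66.0% and 62.4% in WT B-2 cells, where all Igk clonotypes had 46.6% to 52.3%. Its lowest library lay above the highest library of all Igk clonotypes, which include its own. The joint label had 55.3% to 67.5% IGKJ5, and IGKV5-39 had 34.4% to 52.9%, with 98 clonotypes of IGKJ2 and 89 of IGKJ1 over the 6 libraries beside 172 of IGKJ5. IGKV5-37 was too rare for a pattern, with 34 clonotypes of IGKJ5, 21 of IGKJ2 and 16 of IGKJ1 in all. IGKJ2 made up 14.3% and 15.9% of IGKV5-48 clonotypes in WT B-1a, 12.6% and 12.3% in Igll1-/- B-1a and 22.8% and 23.4% in WT B-2 cells, so that both WT B-2 libraries were highest.

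Of 202 V-J pairs, 7 belonged to the members, and edgeR called 0 of these in each comparison. Between Igll1-/- and WT B-1a cells 10.4% of pairs passed (3.47% higher and 6.93% lower in Igll1-/- cells). Of the 7, 4 had an unadjusted p under 0.05, beside 51 of all 202 pairs. 1 of these 4, IGKV5-37 with IGKJ5, passed the filter only through WT libraries, which favours a lower share in Igll1-/- cells. It held 1 clonotype in each Igll1-/- library and is not counted as support. The lowest adjusted value was that of IGKV5-39 with IGKJ5 (log2 fold change 1.55, edgeR adjusted p = 0.091), the most frequent pair of this gene, and with TMM scaling it passed (1.74, edgeR adjusted p = 0.044). Igll1-/- B-1a against WT B-2 cells had 12.4% of pairs called (4.46% higher, 7.92% lower), and WT B-1a against WT B-2 cells 2.97% (2.48% higher, 0.495% lower). In each of these 1 of the 7 had an unadjusted p under 0.05, beside 69 and 39 of all 202 pairs, and TMM scaling called 0. For Igll1-/- B-1a against WT B-2 cells this was again IGKV5-37 with IGKJ5, with the same limit. For IGKV5-48 with IGKJ2 the log2 fold change between WT B-1a and WT B-2 cells was −1.04 (unadjusted p = 0.036, edgeR adjusted p = 0.22). IGKV5-48 with IGKJ5 passed between Igll1-/- and WT B-1a cells only without Igll1-/- replicate 2 (0.91, edgeR adjusted p = 0.011), and without the same library between Igll1-/- B-1a and WT B-2 cells (0.64, edgeR adjusted p = 0.046). Over all 6 libraries these were 0.61 (edgeR adjusted p = 0.20) and 0.34 (0.39).

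**Figure D4:**
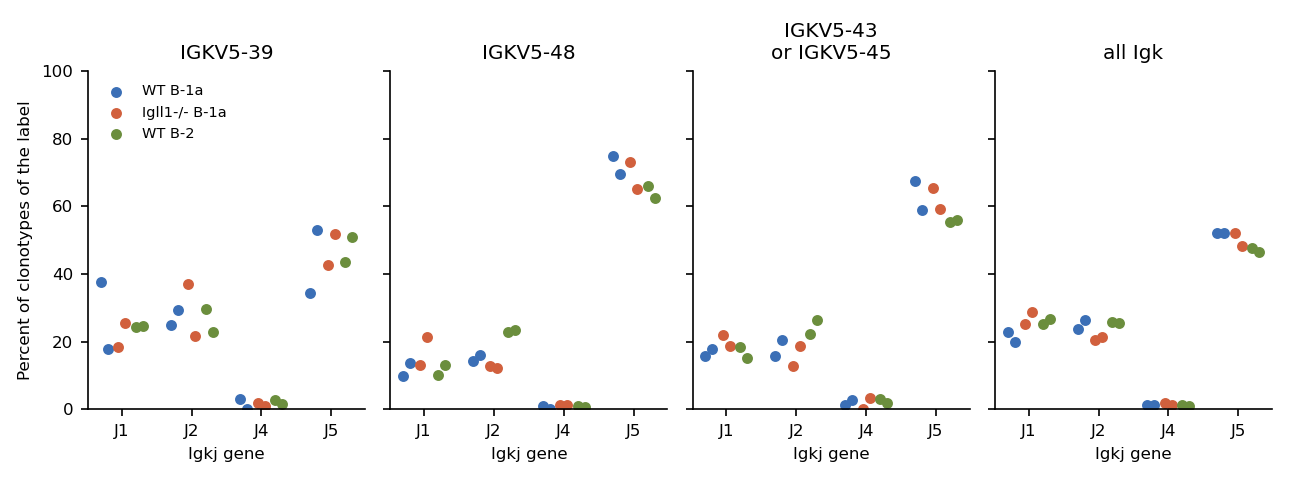
Percent of the clonotypes of each label joined to IGKJ1, IGKJ2, IGKJ4 or IGKJ5 (clonotypes with a single J label), with 1 point per library. IGKV5-48 has 62.4% to 75.0% IGKJ5 and all Igk clonotypes 46.6% to 52.3%.

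A few rearrangements held most of the reads. QQSNSWPLT with IGKJ5 was the largest clonotype of IGKV5-48 in all 6 libraries, with 2057 and 2273 reads in WT B-1a, 4937 and 2593 in Igll1-/- B-1a, and 1827 and 2454 in WT B-2 cells. It held 59.9% and 62.6%, 76.9% and 63.4%, and 35.4% and 40.4% of the reads of IGKV5-48, so the WT B-2 libraries were the least concentrated. The same CDR3 led the joint label in all 6 libraries. A second IGKV5-48 rearrangement, QQSNSWPTT with IGKJ5, went the other way. It had 418 and 436 reads in WT B-1a, 196 and 145 in Igll1-/- B-1a, and 1016 and 1113 in WT B-2 cells. This rearrangement was singled out after its values were seen and passed the test of single clonotypes given below in no comparison.

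In IGKV5-39 the largest clonotype was QNGHSFPLT with IGKJ5 in 5 of 6 libraries. It had 141 and 190 reads in WT B-1a, 585 and 2302 in Igll1-/- B-1a, and 436 and 428 in WT B-2 cells, or 0.0513% and 0.0775%, 0.273% and 0.839%, and 0.151% and 0.148% of all reads. Both Igll1-/- libraries were highest, with far more reads in replicate 2 than in replicate 1. QNGHSFPYT with IGKJ2, which led in WT B-1a replicate 2, had 104 and 200, 518 and 611, and 283 and 314 reads, in the same order of groups. IGKV5-37 had no constant leader. LQGYSTPLT with IGKJ5 had 0 and 309 reads in WT B-1a, 1 and 2 in Igll1-/- B-1a, and 137 and 36 in WT B-2 cells, and LQGYSTPYT with IGKJ2 had 47 and 11, 1 and 0, and 97 and 59.

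Single clonotypes were then compared by reads. Among 1323 clonotypes with at least 10 reads in at least 2 libraries, 37 belonged to the members. By edgeR 0 of the 37 passed in any comparison, where 0.0756% of clonotypes passed between Igll1-/- and WT B-1a cells, 0% between Igll1-/- B-1a and WT B-2 cells and 0.0756% between WT B-1a and WT B-2 cells. At an unadjusted p under 0.05 there were 11, 8 and 3 of 37, beside 280, 371 and 206 of all 1323 clonotypes. Each count includes clonotypes that passed the filter only through libraries where they were high, so these counts are no support. QQSNSWLT of IGKV5-48 is in the first 2 counts, with 0 reads in both Igll1-/- libraries. QNGHSFPPLT is in the third, with 28 and 27 reads in WT B-1a and 0 in both WT B-2 libraries. DESeq2 called 8, 5 and 0 of the 37, and 12.5%, 13.5% and 3.63% of all clonotypes. QNGHSFPLT had an edgeR log2 fold change of 3.11 between Igll1-/- and WT B-1a cells (standard error 0.79, adjusted p = 0.13), and QQSNSWPLT of IGKV5-48 had 0.96 (standard error 0.56, adjusted p = 0.30).

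The 8 clonotypes called by DESeq2 between Igll1-/- and WT B-1a cells were 4 higher in Igll1-/- cells, all of IGKV5-39, and 4 lower, of IGKV5-37 and IGKV5-48. The IGKV5-39 clonotypes were QNGHSFPLT and QNGHSFPPT with IGKJ5 and QNGHSFPWT and QNGHSFPPT with IGKJ1. QNGHSFPPT with IGKJ1 had 3 and 1 reads in WT B-1a, 7 and 115 in Igll1-/- B-1a, and 11 and 22 in WT B-2 cells. Its call rests on Igll1-/- replicate 2 and is not counted as support. QNGHSFPWT had 46 and 33 reads in WT B-1a, 152 and 363 in Igll1-/- B-1a, and 107 and 124 in WT B-2 cells. Against WT B-2 cells 5 were called, QNGHSFPLT as higher and LQGYSTPYT, QQSNSWPTT with IGKJ2, QQSNSWLT and QQSNSWPT with IGKJ5 as lower. The clonotypes called lower in either comparison had 0 to 2 reads in each Igll1-/- library and passed the filter on reads only through WT libraries, which favours that direction, so their calls are not counted as support.

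The short CDR3 QQSNSWLT lacks 1 residue of QQSNSWPLT. It was singled out after its values were seen, with reads in all WT libraries and 0 in both Igll1-/- libraries. Under IGKV5-48 it had 100 and 56 reads in WT B-1a, 0 and 0 in Igll1-/- B-1a, and 65 and 22 in WT B-2 cells. Under the joint label it had 343 and 625, 0 and 0, and 205 and 386 reads with IGKJ5. Over all V and J labels it took 0.161% and 0.279% of reads in WT B-1a and 0.0943% and 0.142% in WT B-2 cells. If reads were independent, the 0 reads in the Igll1-/- libraries would allow up to 0.0014% in replicate 1 and 0.0011% in replicate 2. Reads are PCR copies, so the true limit is wider. Under both labels QQSNSWLT passed the filter on reads only through WT libraries, which favours a lower value in Igll1-/- cells. Under the joint label its edgeR adjusted p was 0.14 against WT B-1a and 0.12 against WT B-2 cells. The share of all clonotypes with the same pattern is not given here, so the absence of QQSNSWLT is a description and not counted as support. Under the joint label QQSNSWPYMYT with IGKJ2 had 855 and 0 reads in WT B-1a, 0 and 165 in Igll1-/- B-1a, and 0 and 50 in WT B-2 cells. It was singled out after its values were seen, and its reads differed widely between replicates, so these values are a description only. Clonotypes of 8 residues held 0.220% to 3.93% of productive reads of IGKV5-48 and 0.134% to 15.1% of those of the joint label. Over all Igk they held 5.75% to 8.55%.

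Most CDR3s of the family had 9 residues, in 74.5% to 87.0% of the productive IGKV5-48 clonotypes and 75.9% to 98.9% of those of IGKV5-39, beside 72.1% to 79.4% over all Igk. Each label had a leading start, the first 5 residues that held most of its reads, LQGYS for IGKV5-37, QNGHS for IGKV5-39 and QQSNS for IGKV5-48 and the joint label. The leading start covered 94.6% to 97.1% of productive reads of IGKV5-48 and 93.6% to 98.3% of IGKV5-39, but only 34.9% to 48.1% and 36.6% to 67.9% of their productive clonotypes. Over all Igk it was 95.8% to 96.9% of reads and 45.5% to 54.4% of clonotypes, so a count of clonotypes contains many small ones with another start throughout these tables. Of 167 IGKV5-39 clonotypes with another start, 117 were 1 residue away from QNGHS and 131 had a single read. Of 512 of IGKV5-48, 276 were 1 residue away from QQSNS and 381 had a single read. IGKV5-48 clonotypes with another start had median V identities of 90.0% to 92.4% per library, against 94.3% to 96.1% for those with QQSNS.

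These clonotypes move with the result on IGKV5-39. With the leading start there were 19 and 11 productive IGKV5-39 clonotypes in WT B-1a, 21 and 34 in Igll1-/- B-1a, and 41 and 36 in WT B-2 cells. With another start there were 9 and 19, 27 and 59, and 31 and 22. As percent of the library, the leading start averaged 0.429% ± 0.086 (SD, n = 2) for Igll1-/- B-1a, 0.446% ± 0.040 (SD, n = 2) for WT B-2 and 0.210% ± 0.074 (SD, n = 2) for WT B-1a cells, so that Igll1-/- B-1a and WT B-2 cells overlapped. Restricted to the leading start, an alternative chosen after seeing the data, the log2 fold change of IGKV5-39 between Igll1-/- and WT B-1a cells was 1.02 (edgeR adjusted p = 0.10) by clonotypes and 2.31 (edgeR adjusted p = 0.029) by reads. When near-identical clonotypes were merged it was 0.80 (edgeR adjusted p = 0.17), and over clonotypes with at least 10 reads 0.22 (edgeR adjusted p = 0.81). The part of sequencing or PCR errors in the number of clonotypes was not tested.

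**Figure D5:**
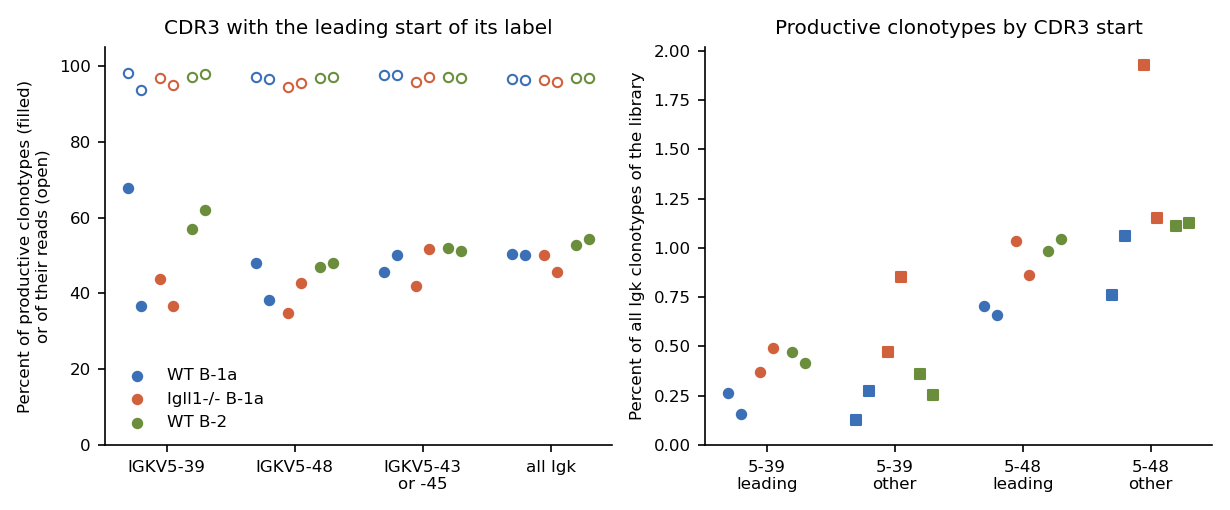
Left, percent of productive clonotypes (filled) and of their reads (open) whose CDR3 begins with the leading start of their label. Right, productive clonotypes with the leading start (circles) and another start (squares) as percent of all Igk clonotypes, with 1 point per library. The leading start covers nearly all reads but about 35% to 68% of the clonotypes of IGKV5-39 and IGKV5-48.

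Some rearrangements of IGKV5-39, IGKV5-48 and the joint label recurred in all 6 libraries, while IGKV5-37 was too rare for this comparison. For IGKV5-39, 6 of 226 distinct clonotypes were found in all 6 libraries and held 88.9% of its reads, and for IGKV5-48 it was 28 of 555 with 89.7%. The joint label had 17 of 228 with 81.0%, and IGKV5-37 had 0 of 49. For IGKV5-37, Igll1-/- replicate 1 held only 3 clonotypes of 1 read each, so few could recur in all 6 libraries. Over all Igk 996 of 25645 were in all 6 libraries, with 82.6% of reads. Between 67.6% and 73.5% of the distinct clonotypes of the 3 members were seen in 1 library only.

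Productive rearrangements made up 93.2% of IGKV5-37, 90.1% of IGKV5-39 and 91.6% of IGKV5-48 clonotypes over the 6 libraries, beside a median of 92.2% over 82 genes with at least 60 clonotypes. By group the 3 members together had 90.3% ± 2.5 (SD, n = 2) for Igll1-/- B-1a, 91.9% ± 2.1 (SD, n = 2) for WT B-1a and 92.0% ± 0.2 (SD, n = 2) for WT B-2 cells. These means differed by less than the SD of either B-1a group. The SD of WT B-2 cells was smaller than their difference from Igll1-/- B-1a cells. Of 83 unproductive IGKV5-48 clonotypes 79 contained a stop codon, and of 36 of IGKV5-39 14 did. Most rested on a single read, 60 of 83 and 32 of 36.

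By RefSeq gene order on GRCm38, where all 5 names matched, the members lie among genes of the IGKV12 family, with IGKV5-39 and IGKV5-37 on either side of IGKV12-38 and IGKV5-45 and IGKV5-43 on either side of IGKV12-44. Of the other Igkv genes numbered 30 to 55 in the locus, 13 were tested, and 2 passed between Igll1-/- and WT B-1a cells. IGKV4-53 rose by 0.93 on the log2 scale (edgeR adjusted p = 0.026), from 1.55% and 1.46% of clonotypes in WT B-1a to 2.54% and 3.18% in Igll1-/- B-1a cells. IGKV7-33 fell by 2.53 (edgeR adjusted p = 0.0054), from 1.05% and 1.12% to 0.281% and 0.101%. The median of the 13 was 0.18 and 7 were above 0, so genes near IGKV5-39 lay on both sides. Of the genes whose percent of clonotypes over the 6 libraries was most like that of IGKV5-39, IGKV3-10 was first (Pearson r of log2 percent 0.94), followed by IGKV14-111 (0.89). IGKV5-48 was most like IGKV8-34 (0.88) and IGKV6-23 (0.87), and IGKV5-37 most like IGKV4-70 (0.93) and IGKV10-95 (0.91). These are the highest values among 82 genes compared, over 6 libraries that form 3 groups of differing depth.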

How the data were processed

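The tables are the authors' output of IMGT/HighV-QUEST for Igk rearrangements amplified from genomic DNA with a degenerate V primer and added primers, size-selected at 100 to 280 bp and sequenced on an Illumina instrument without molecular barcodes. The version of the tool and the genome build are not given in the sources used here, and reads are PCR copies, so counts of reads are not counts of cells. Primer efficiency can differ between V genes, so shares were compared between groups for the same gene. Per the file headers each deposited line holds a clonotype with its read count, and the deposited V identity is a percent. The 4 heavy chain tables were not used.

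From these, clonotypes per V gene, clonotypes per V-J pair and reads per clonotype were counted in 6 libraries. Each was compared with edgeR 4.0.16 (glmQLFit, glmQLFTest) over all features with at least 10 counts in at least 2 libraries, with the library total as size, 1 spread over all 3 groups, and Benjamini-Hochberg adjustment with a threshold of 0.05. The fits were tested on simulated data. Alternatives were reads in place of clonotypes, at least 2 or 10 reads, productive or unproductive clonotypes only, labels with several V genes counted to the first listed, merging of clonotypes 1 substitution apart with a 10-fold difference in reads, TMM, DESeq2 1.42.0, no filter (for clonotypes also at least 100 reads), the replicate block and leaving out each library. Members, lists and tests were chosen with earlier results of these data known. All 5 members are named. Neighbours are named where they pass with a member, the 2 genes most alike by Pearson r, and clonotypes by the most reads in each library or by passing. A few further clonotypes, among them QQSNSWPTT with IGKJ5, QNGHSFPPLT and QQSNSWPYMYT, fall outside this rule and were singled out after their values were seen.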

Additional observations from a re-analysis of the deposited data

How the results depend on the processing

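Between Igll1-/- and WT B-1a cells the count of 1 member gene called became 0 with at least 10 reads per clonotype. It also became 0 with near-identical clonotypes merged and with the leading CDR3 start, and 2 with TMM. Leaving out single libraries in turn moved it as well. Unproductive clonotypes of IGKV5-39 numbered 4 and 4 in WT B-1a, 6 and 13 in Igll1-/- B-1a, and 6 and 3 in WT B-2 cells. With unproductive clonotypes only, IGKV5-39 therefore failed the filter and was not tested, so that setting could not call it. The count stayed 1 by reads, with at least 2 reads and with productive clonotypes only. The same held with several V genes counted to the first listed or kept as features, and with DESeq2. It also held with no filter, with both blocks given below and with the leading start by reads. The count of 0 against WT B-2 cells became 0 to 2 with 1 library left out. For V-J pairs the count of 0 became 1 with TMM between Igll1-/- and WT B-1a cells, and 0 to 1 with 1 library left out for both comparisons of Igll1-/- B-1a cells. For clonotypes DESeq2 gave 8 and 5 in these comparisons. Some results that passed no threshold changed direction. IGKV5-48 between Igll1-/- B-1a and WT B-2 cells turned to −0.10 with the leading start and to −0.054 without Igll1-/- replicate 1 (up to 0.45 without another library), where its pair with IGKJ5 was −0.038 (up to 0.64). IGKV5-37 between WT B-1a and WT B-2 cells turned to 0.029 with productive clonotypes only, 0.16 with TMM, 0.27 with DESeq2, 0.57 without WT B-1a replicate 1 and 0.0082 without WT B-2 replicate 1 (down to −1.05 without another library), and IGKV5-39 to 0.05 with at least 10 reads. In the same comparison IGKV5-48 with IGKJ5 turned to 0.035 with TMM and QQSNSWPLT of IGKV5-48 to −0.023 without WT B-2 replicate 1 (up to 0.40 without another library), and IGKV5-48 with IGKJ2 between Igll1-/- and WT B-1a cells to −0.60 with at least 2 reads. The joint label turned to 0.0030 with TMM between Igll1-/- and WT B-1a cells and to 0.039 with DESeq2 between WT B-1a and WT B-2 cells. The cause was not tested. TMM moved the median log2 fold change of all V genes by 0.26, 0.46 and 0.20 in the 3 comparisons. The V genes called higher then were 10 of 16, 7 of 8 and 3 of 3, against 7 of 15, 6 of 19 and 3 of 3. The productive share became 99.5% (WT B-1a), 99.0% (Igll1-/- B-1a) and 99.0% (WT B-2) by reads, 97.2%, 93.5% and 94.95% with at least 2 reads, 100% in WT B-1a and 97.4% in WT B-2 cells with at least 10 reads, and 93.3% in WT B-2 cells with near-identical clonotypes merged. Libraries with the same replicate number did not deviate together (r = 0.03, −0.19 and 0.01 across 84 V genes). With the replicate block the member genes called stayed 1, 0 and 0 and the fold change of IGKV5-39 was 1.40 on the log2 scale (edgeR adjusted p = 0.046). All V genes called became 17, 18 and 8 in place of 15, 19 and 3. With the Igll1-/- numbers crossed in this block, chosen after seeing the data, the member genes called were 1, 0 and 0 and the V-J pairs 1, 1 and 0. With 2 libraries per group, a gene at the level of IGKV5-37 lies close to the limit that 3 clonotypes set.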
